A study of Mus musculus and Homo sapiens
Mus musculus with 14 samples.

Results

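Dopamine receptors were followed across the layers of the mouse retina through 4 genes, Drd1, Drd2, Drd4 and Drd5. They were taken by symbol from tables that give, for each gene and library, the number of unique molecular identifiers (UMIs), so that PCR copies of a molecule count once. All 4 were found among the 24460 genes of the layer table and among the 18415 genes of the amacrine table, and Drd3 was not analysed here. The counts came from Light-Seq, in which RNA is copied into cDNA inside a fixed section and the cDNA of chosen cells is then tagged by light with a DNA barcode. The tissue came from wild-type CD1 IGS mice in the third postnatal week. In 4 sections of 1 animal, regions drawn by eye were barcoded layer by layer. The regions were the ganglion cell layer (GCL), the bipolar cell layer (BCL) and the outer nuclear layer (ONL). Photoreceptor cell bodies, of rods and cones, are found in the ONL. Ganglion cells share the GCL with displaced amacrine cells, while the BCL takes in Müller glia and horizontal cells besides bipolar cells. In 5 other sections a few amacrine cells stained for tyrosine hydroxylase (TH+) and many more amacrine cells without the stain (TH-) were barcoded, and the methods speak of a single source animal without listing it section by section. Each library is a bulk pool of cells, so fewer cells of a type and less RNA per cell cannot be told apart.

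The ONL libraries of sections 1 to 4 held 801105, 722893, 438059 and 310228 UMIs, the BCL libraries 193869, 208437, 196794 and 202274, and the GCL libraries 785013, 667252, 650644 and 585655. The TH+ libraries of sections 1 to 5 held 48978, 87449, 42507, 46245 and 30317 UMIs and the TH- libraries 152105, 172838, 134394, 200344 and 141886. The shallowest libraries were thus TH+, where a single UMI of a receptor weighs most. Levels are given as UMIs per 1000000 UMIs of the library (CPM). The layer names matched their markers. The 18 rod genes gave 9.33% ± 0.698 of ONL UMIs (SD, n = 4), the 14 bipolar genes 0.962% ± 0.0635 of BCL UMIs and the 11 ganglion cell genes 0.718% ± 0.0385 of GCL UMIs, and each list was at its highest there among the layers.

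Dopamine in the retina is released by a sparse set of amacrine cells that express tyrosine hydroxylase, and it reaches cells in every layer by diffusion. Drd1 and Drd5 encode the D1-like receptors, which couple to stimulatory G proteins and raise cyclic AMP. Drd2 and Drd4 encode the D2-like receptors, which couple to inhibitory G proteins and lower it, with the D4 receptor known for its place in photoreceptors and the D2 receptor also known as an autoreceptor of dopaminergic cells.

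The 4 genes lie on different chromosomes of the GRCm39 assembly. Drd1 (ENSMUSG00000021478) spans chr13:54204872-54209760 on the minus strand and Drd5 (ENSMUSG00000039358) spans chr5:38476710-38479861 on the plus strand, and the coding sequence of each lies in 1 exon. Drd4 (ENSMUSG00000025496) spans chr7:140871902-140876377 on the plus strand with 4 coding exons. Drd2 (ENSMUSG00000032259) spans chr9:49251654-49319477 on the plus strand, and its coding transcripts have 6 or 7 coding exons. A long noncoding RNA on the opposite strand shares exon sequence with Drd2 (Gm46111) and another with Drd5 (Gm26560). The reads were counted with the default settings of featureCounts, which ignore strand and leave out reads that overlap exons of several annotated genes. UMIs from those stretches were therefore either not counted, where the annotation used held both genes, or cannot be told apart by strand. The alternative coding exon of Drd2, coding exon 5 at chr9:49314494-49314580 and present in 2 of 3 protein-coding transcripts, separates the long from the short form of the D2 receptor. It is shown because the Drd2 counts below add both forms. It has 87 bases, or 29 codons, and reads as follows on the plus strand.
Drd2 alternative exon: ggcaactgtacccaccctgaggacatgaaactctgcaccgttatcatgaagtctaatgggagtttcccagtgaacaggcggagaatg

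The starts of Drd4 and Drd2 are shown because these genes had their highest levels in different layers, Drd4 in the ONL and Drd2 in the BCL. Each sequence is the 250 bases before the RefSeq start on GRCm38.p6, on the plus strand, chr7:141291768-141292017 for Drd4 and chr9:49340153-49340402 for Drd2. Capitals mark the GC box letters GGGCGG on either strand, where overlapping matches run together.
Drd4 upstream: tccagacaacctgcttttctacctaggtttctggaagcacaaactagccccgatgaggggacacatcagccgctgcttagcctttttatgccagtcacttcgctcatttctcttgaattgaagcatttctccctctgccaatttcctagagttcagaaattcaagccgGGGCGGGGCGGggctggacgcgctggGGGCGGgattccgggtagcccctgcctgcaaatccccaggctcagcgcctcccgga
Drd2 upstream: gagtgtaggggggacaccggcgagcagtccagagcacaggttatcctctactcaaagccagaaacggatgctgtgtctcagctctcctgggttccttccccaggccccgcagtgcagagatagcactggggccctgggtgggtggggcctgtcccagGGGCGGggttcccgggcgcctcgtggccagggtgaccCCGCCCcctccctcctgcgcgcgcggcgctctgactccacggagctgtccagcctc
Drd4 had 3 such matches and Drd2 had 2, and 32.7% of 32851 promoter windows of the same length held at least 1. The letters TAATCC (6.25% of windows), TATAAA (12.4%) and CACGTG (6.02%) were not in either window on either strand. The GC content was 56.8% for Drd4 and 68.8% for Drd2 against a median of 52.4% over all windows. These matches are descriptions of the letters only.

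Drd4, a D2-like receptor, was the most abundant of the 4 receptors in the ONL. Its level there was 197, 253, 260.2 and 213 CPM in sections 1 to 4, from 158, 183, 114 and 66 UMIs. In the BCL it was 20.6, 52.8, 55.9 and 39.6 CPM, from 4, 11, 11 and 8 UMIs, and in the GCL 22.9, 34.5, 24.6 and 8.54 CPM, from 18, 23, 16 and 5 UMIs. Every ONL section was above every section of the other layers, while the BCL and GCL values overlapped. The deepest and the shallowest ONL library gave nearby values, with 95% counting intervals of 168 to 230.5 CPM in section 1 and 165 to 271 CPM in section 4 (exact binomial, covering counting error only).

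The mean was 231 ± 30.7 CPM in the ONL (SD, n = 4), 42.2 ± 16.04 CPM in the BCL and 22.6 ± 10.7 CPM in the GCL. Drd4 was higher in the ONL than in the BCL by a log2 fold change of 2.77 ± 0.23 (SE), in 4 of 4 sections, with an adjusted p of 6.732e-15 by the quasi-likelihood test of edgeR with Benjamini-Hochberg adjustment over all genes. Over the GCL the log2 fold change was 3.47 ± 0.19, again in 4 of 4 sections, with an edgeR adjusted p of 5.781e-23 (Benjamini-Hochberg). The step from GCL to BCL was not called. Its log2 fold change was 0.71 ± 0.35 with an edgeR adjusted p of 0.1094 (Benjamini-Hochberg), and the BCL was higher in 3 of 4 sections. The pooled counts of 34 BCL and 62 GCL UMIs gave a BCL to GCL ratio of 1.84, with a counting interval of 1.17 to 2.84 that leaves out the spread between sections. All 4 layer sections came from 1 animal, so p-values over these sections are too small for a statement about animals.

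**Figure D1:**
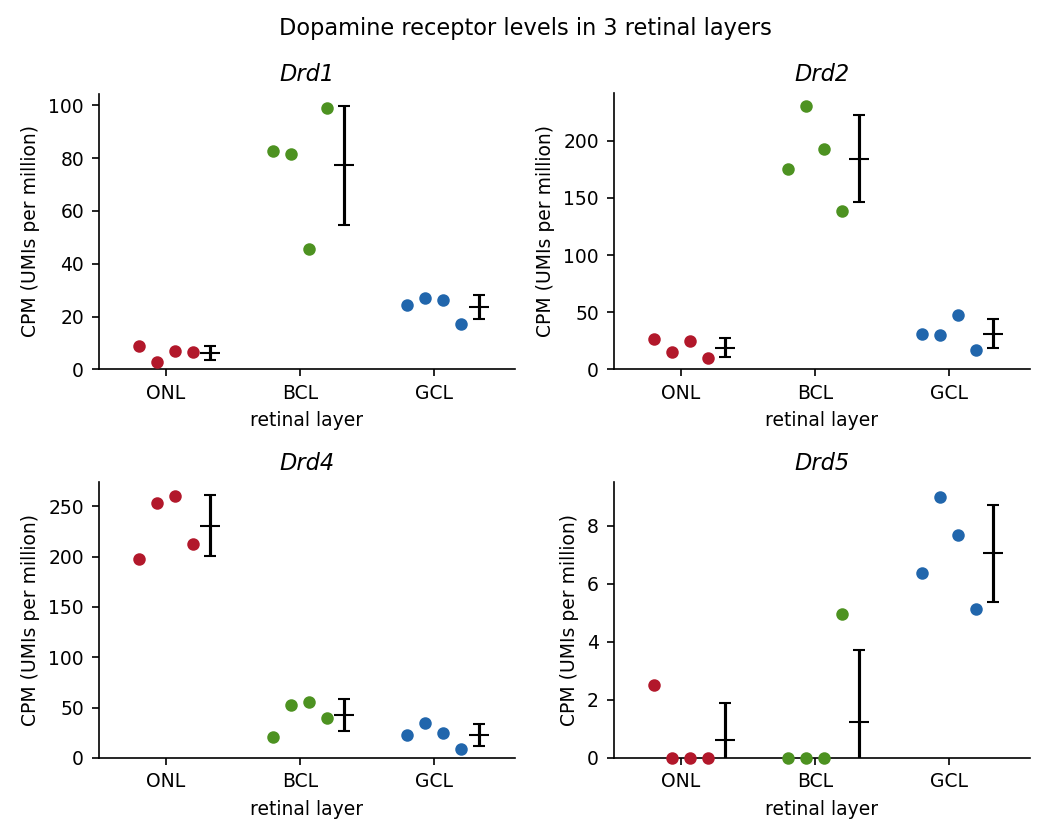
Levels of the 4 receptor genes in CPM (vertical axes, each from 0) in the ONL, BCL and GCL, with the 4 sections as points in order and the mean ± SD as a bar beside them, drawn down to 0 at most. Drd4 was highest in every ONL section and Drd1 and Drd2 in every BCL section, while the Drd5 points at 0 in the BCL have limits above its GCL values.

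Rod markers moved with Drd4, and their part in its pattern was not tested. The 18 rod genes made up 8.29, 9.65, 9.80 and 9.58% of ONL UMIs. They made up 1.80, 2.21, 2.88 and 1.98% in the BCL and 0.648, 0.958, 1.096 and 0.674% in the GCL, and all 18 were present in each library. Rod RNA was therefore measured in every layer, in the same order of layers as Drd4. Set against these genes, a ratio chosen after the levels were seen, Drd4 had 25.0 UMIs per 10000 rod marker UMIs in the ONL (95% counting interval 22.9 to 27.2), 19.1 in the BCL (13.3 to 26.8) and 27.5 in the GCL (21.1 to 35.2). The 3 intervals overlapped, so a difference between layers in Drd4 per rod marker UMI was not detectable at this depth. The 9 cone genes had the same order of layers, with 0.206% ± 0.0599 of ONL UMIs, 0.0504% ± 0.00616 of BCL UMIs and 0.0136% ± 0.00183 of GCL UMIs, and Opn1sw was the most abundant in the ONL. Per 10000 cone marker UMIs, Drd4 had 1056 UMIs in the ONL (967 to 1150.4), 842 in the BCL (583 to 1176) and 1713 in the GCL (1313 to 2196). The GCL interval lay above both others, unlike in the ratio to rod markers, but these intervals leave out the spread between sections, and by section the GCL values (641 to 2300) took in the ONL values (949.5 to 1755).

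**Figure D2:**
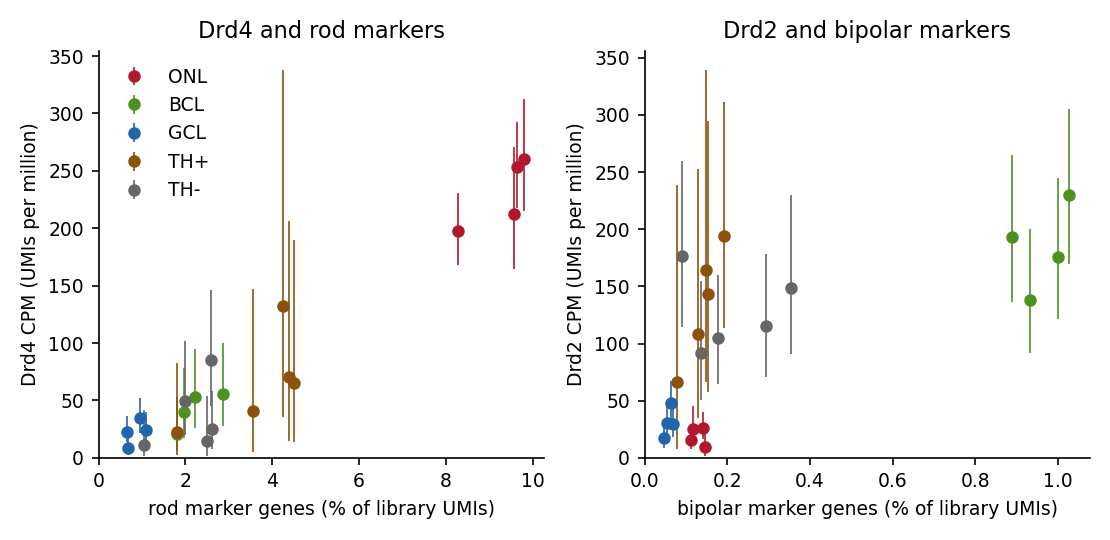
Drd4 level in CPM against the share of UMIs from 18 rod genes (left) and Drd2 level against the share from 14 bipolar genes (right), both in %, for the 22 layer and amacrine libraries, with 95% counting intervals as vertical lines. The 4 ONL libraries are highest on both axes at the left, and at the right the TH+ and TH- libraries have Drd2 levels near those of the BCL at a lower bipolar share.

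Drd2 had its highest level among the layers in the BCL. It was at 175, 230.3, 193 and 138 CPM in BCL sections 1 to 4, from 34, 48, 38 and 28 UMIs. In the GCL it was at 30.6, 30.0, 47.6 and 17.1 CPM, from 24, 20, 31 and 10 UMIs, and in the ONL at 26.2, 15.2, 25.1 and 9.67 CPM, from 21, 11, 11 and 3 UMIs. No BCL section overlapped with another layer, and the GCL and ONL ranges overlapped. Mean levels were 184 ± 38.2 CPM in the BCL, 31.3 ± 12.5 CPM in the GCL and 19.1 ± 7.97 CPM in the ONL (SD, n = 4).

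Between the ONL and the BCL, Drd2 differed by a log2 fold change of -2.84 ± 0.25, lower in 4 of 4 ONL sections, with an edgeR adjusted p of 6.649e-14 (Benjamini-Hochberg). Between the BCL and the GCL its log2 fold change was 2.37 ± 0.23, higher in 4 of 4 BCL sections, with an edgeR adjusted p of 6.638e-13 (Benjamini-Hochberg). The ONL and the GCL were not separated by the test. Drd2 was lower in the ONL in 4 of 4 sections, but the log2 fold change of -0.47 ± 0.29 had an edgeR adjusted p of 0.1614 (Benjamini-Hochberg). From pooled counts of 85 GCL and 46 ONL UMIs the GCL to ONL ratio was 1.56, with a counting interval of 1.08 to 2.29.

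Bipolar markers also peaked in the BCL, and their part in the Drd2 pattern was not tested. The 14 bipolar genes made up 1.0002, 1.03, 0.888 and 0.932% of BCL UMIs, against 0.141, 0.111, 0.116 and 0.145% in the ONL and 0.0534, 0.0682, 0.0639 and 0.0466% in the GCL. None of the 14 was at 0 over a whole layer. By a ratio again chosen after the levels were seen, Drd2 had 192 UMIs per 10000 bipolar marker UMIs in the BCL (162 to 225) and 159 in the ONL (117 to 212), intervals that overlap, and 544 in the GCL (434 to 672), above both. Per 10000 amacrine marker UMIs the order was another, with 1885 Drd2 UMIs in the BCL (1594 to 2215), 333 in the ONL (244 to 445) and 79.0 in the GCL (63.1 to 97.6), so the top layer depends on the markers used as the base. Müller glia genes were also highest in the BCL, at 0.844% ± 0.0408 of UMIs (10 genes, led by Glul), and their part was not tested either. The 5 endothelial genes summed to 0.0977% ± 0.00284 there, but most of this was Kdr, at 833 ± 47.3 CPM, and of the 4 tested between BCL and GCL 2 were higher and 1 lower in the BCL. Horizontal cell genes (0.0601% ± 0.00857, led by Tfap2b) were highest in the BCL as well. Amacrine genes (10, led by Calb2) and microglia genes (6, led by Csf1r) were highest in the GCL, at 0.401% ± 0.0183 and 0.00958% ± 0.00215, and pigment epithelium genes (7, led by Ttr) in the ONL, at 0.0173% ± 0.001996.

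Drd1, a D1-like receptor, was ordered BCL, GCL, ONL. It was at 82.5, 81.6, 45.7 and 98.9 CPM in BCL sections 1 to 4, from 16, 17, 9 and 20 UMIs. In the GCL it was at 24.2, 27.0, 26.1 and 17.1 CPM, from 19, 18, 17 and 10 UMIs. In the ONL it was at 8.74, 2.77, 6.85 and 6.45 CPM, from 7, 2, 3 and 2 UMIs. The 3 layers did not overlap in any section, although the low ONL values rest on few UMIs. Means were 77.2 ± 22.4 CPM in the BCL, 23.6 ± 4.50 CPM in the GCL and 6.20 ± 2.50 CPM in the ONL (SD, n = 4). The bipolar, Müller glia and horizontal cell markers given above peak in the same layer as Drd1, and their part in its pattern was not tested. Per 10000 bipolar marker UMIs, Drd1 had 409 UMIs in the GCL (95% counting interval 315 to 523), above the 80.4 in the BCL (61.6 to 103) and the 48.5 in the ONL (26.5 to 81.3), so that its top layer changed. Per 10000 amacrine marker UMIs the top layer was again the BCL, with 790 Drd1 UMIs (606 to 1012.5) against 101.4 in the ONL (55.5 to 170.2) and 59.5 in the GCL (45.8 to 75.9). These ratios too were chosen after the levels were seen, and their intervals leave out the spread between sections.

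For Drd1 the BCL exceeded the GCL by a log2 fold change of 1.52 ± 0.28 in 4 of 4 sections, with an edgeR adjusted p of 1.036e-05 (Benjamini-Hochberg). The ONL was below the GCL in 4 of 4 sections, with a log2 fold change of -1.74 ± 0.39 and an edgeR adjusted p of 0.0001017 (Benjamini-Hochberg). Against the BCL the ONL log2 fold change was -3.26 ± 0.37, in 4 of 4 sections, with an edgeR adjusted p of 1.383e-10 (Benjamini-Hochberg). Drd1 thus differed in each pair of layers, whereas Drd2 and Drd4 each left a pair that was not called. Whether the receptors differ from one another over the layers was tested only through the share of Drd4 among their UMIs.

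Drd5, the other D1-like receptor, was the rarest, and most of its layer UMIs came from the GCL. It had 5, 6, 5 and 3 UMIs in GCL sections 1 to 4, or 6.37, 8.99, 7.68 and 5.12 CPM, with a mean of 7.04 ± 1.67 CPM (SD, n = 4). In the ONL it had 2 UMIs in section 1 (2.50 CPM) and none in the others, where 0 counts allow up to 4.15, 6.85 and 9.67 CPM (3 counts of the library total). In the BCL it had 1 UMI in section 4 (4.94 CPM) and none in sections 1 to 3, where 0 counts allow up to 15.5, 14.4 and 15.2 CPM. Each GCL value was above each value measured in the other layers, but the limits of the empty BCL libraries lie above the GCL levels. From pooled counts the GCL to ONL ratio was 8.03, with a counting interval of 1.94 to 71.1. The interval of the GCL to BCL ratio, 5.66 (0.9003 to 235), includes equal levels. Drd5 was below the low-count filter of both tables and has no edgeR value.

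Counting calls, 3 of the 4 receptors were tested in the layer table, and their calls describe genes that passed the filter through the layer where they are high. Between the ONL and the BCL, 3 of 3 were called, 1 higher and 2 lower in the ONL, where 36.7% of the 11324 genes tested were called. Between the ONL and the GCL, 2 of 3 were called, 1 in each direction, against 61.5% of all genes tested, a share near the background. Between the BCL and the GCL, 2 of 3 were called, both higher in the BCL, against 36.5% of all genes tested. With 3 genes these shares are descriptions, and nothing about dopamine receptors as a class was read from them.

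**Figure D3:**
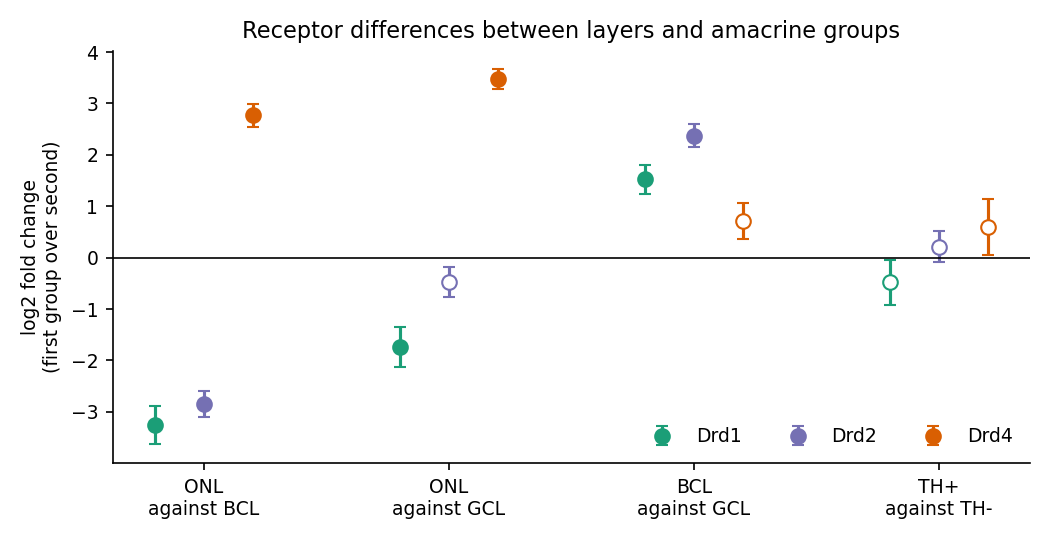
Log2 fold changes (vertical axis, the group named above over the one below it) of Drd1, Drd2 and Drd4 in the 3 layer comparisons and between TH+ and TH- amacrine cells, with SE bars, filled points for an edgeR adjusted p under 0.05 and open points for the others. Drd4 is above 0 in both ONL comparisons while Drd1 and Drd2 are below it.

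CPM values of single sections gave a second view that needs no model. Over all splits of 4 against 4 sections the smallest possible two-sided p is 0.0286, and 9 of 12 exact permutation tests (4 receptors in 3 pairs of layers) reached it. The exceptions were Drd2 between ONL and GCL (exact p = 0.143), Drd4 between BCL and GCL (exact p = 0.114) and Drd5 between ONL and BCL (exact p = 1). When libraries of the same section were paired, the smallest possible exact p was 0.125, so the paired form cannot pass 0.05 with 4 sections. The 9 include Drd5 between BCL and GCL, where 3 of 4 BCL libraries are at 0 with limits above the GCL levels, so that its exact p treats unresolved zeros as measured and does not show a difference. They also include Drd5 between ONL and GCL, where 3 of 4 ONL libraries are at 0 and the limit of 9.67 CPM in section 4 exceeds each GCL value, so that this exact p too rests on zeros that single libraries do not resolve. The 12 exact p-values are not adjusted, and they cover sections of 1 animal.

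The make-up of the receptor UMIs set the ONL apart from the other layers without any scaling of libraries. Drd4 took 84.0, 93.4, 89.1 and 93.0% of the UMIs of the 4 receptors in ONL sections 1 to 4. It took 7.41, 14.5, 19.0 and 14.04% in the BCL and 27.3, 34.3, 23.2 and 17.9% in the GCL. In the ONL most receptor UMIs were thus Drd4. In the other layers its share was lower, with BCL and GCL values that overlapped, and in GCL section 2 it was the largest share. The mean share was 89.9% ± 4.33 for the ONL, 13.7% ± 4.76 for the BCL and 25.7% ± 6.95 for the GCL (SD, n = 4). The two-sided exact permutation test gave p = 0.0286 for the ONL against either other layer, the smallest possible, and p = 0.0571 for the BCL against the GCL, higher in 4 of 4 GCL sections (3 tests in all, sections of 1 animal). Weighting UMIs by gene length brought the exact p of that last comparison to 0.0286.

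In the BCL the largest share was that of Drd2, at 60.2% ± 7.47, followed by Drd1 at 25.7% ± 8.53. The GCL was the most even layer, with Drd2 at 36.7% ± 6.21, Drd1 at 29.0% ± 4.79, Drd4 at 25.7% ± 6.95 and Drd5 at 8.62% ± 1.58. The D1-like receptors together were thus a minor part of receptor UMIs in the ONL, where Drd1 stood at 2.48% ± 1.13 and Drd5 at 0.266% ± 0.532. Summed over the 4 genes, receptor levels were 257 ± 30.2 CPM in the ONL, 305 ± 40.4 CPM in the BCL and 84.6 ± 26.2 CPM in the GCL. Within the GCL, section 4 had the lowest level of each receptor and a summed level of 47.8 CPM against 84.1, 100.4 and 106 CPM in sections 1 to 3, an observation made after the values were seen.

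**Figure D4:**
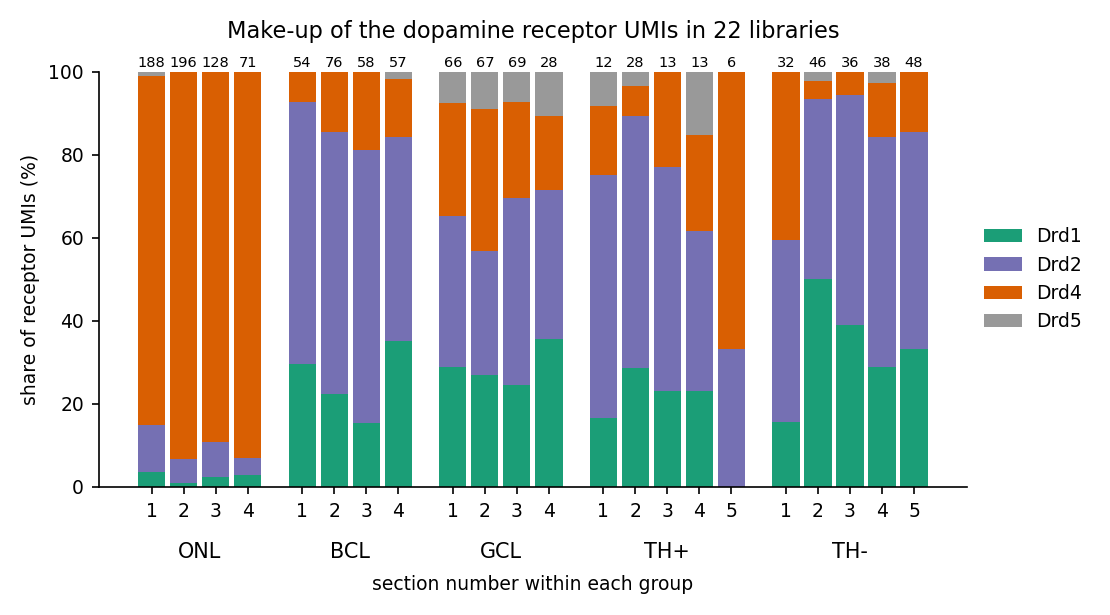
Share of each gene among the UMIs of the 4 receptors (vertical axis, %) in the 22 libraries, 1 bar per section, with the number of receptor UMIs above each bar. Drd4 fills 84.0 to 93.4% of the ONL bars, Drd2 is the largest part of each BCL bar, and the TH+ bar of section 5 rests on 6 UMIs.

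The shares above take no account of gene length, so levels of different genes were compared per kilobase of exon length. In the ONL the order was Drd4 at 68.3 ± 9.07 CPM per kb, Drd2 at 7.48 ± 3.13, Drd1 at 1.71 ± 0.688 and Drd5 at 0.198 ± 0.396, with the ranges of neighbouring genes apart except for Drd1 and Drd5. In the BCL it was Drd2 at 72.4 ± 14.995 CPM per kb, Drd1 at 21.3 ± 6.18, Drd4 at 12.5 ± 4.74 and Drd5 at 0.392 ± 0.784. Here Drd2 stood clear of the rest, and the ranges of Drd1 and Drd4 overlapped. In the GCL it was Drd2 at 12.3 ± 4.92 CPM per kb, Drd4 at 6.69 ± 3.16, Drd1 at 6.50 ± 1.24 and Drd5 at 2.23 ± 0.529, where the ranges of Drd2, Drd4 and Drd1 overlapped and that of Drd5 lay below Drd1 but touched the lowest Drd4 section. Per kilobase, the level of Drd4 in the ONL and that of Drd2 in the BCL were within the spread of each other.

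The amacrine libraries asked which receptors the dopamine-releasing cells carry beside other amacrine cells. The stain was reflected in the RNA, since the 5 genes Th, Slc18a2, Slc6a3, Ddc and Cartpt made up 0.274, 0.277, 0.428, 0.210 and 0.435% of TH+ UMIs and between 0.0131 and 0.0265% of TH- UMIs. Cartpt was the most abundant of them in both groups. Ddc had 12 UMIs in TH+ and none in TH- libraries, while Slc6a3, with 1 UMI in TH+ and none in TH- libraries, was too rare to separate them. Th, the enzyme that was also the basis of selection, stood at 475 ± 131 CPM in TH+ and 22.04 ± 15.9 CPM in TH- cells (SD, n = 5).

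Drd2, the autoreceptor gene, was at 143, 194, 165, 108 and 66.0 CPM in TH+ sections 1 to 5, from 7, 17, 7, 5 and 2 UMIs. In TH- cells it was at 92.0, 116, 149, 105 and 176 CPM, from 14, 20, 20, 21 and 25 UMIs. The groups overlapped over most of their range, with TH+ cells higher in 4 of 5 sections and lower in section 5, the shallowest. The means of 135 ± 49.9 CPM and 128 ± 34.4 CPM (SD, n = 5) differed by less than their spread. The log2 fold change was 0.21 ± 0.30 with an edgeR adjusted p of 0.919 (Benjamini-Hochberg), and without section 2 it fell to -0.05. The exact permutation p was 0.786 (two-sided, smallest possible 0.00794).

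Drd1 was at 40.8, 91.5, 70.6 and 64.9 CPM in TH+ sections 1 to 4, from 2, 8, 3 and 3 UMIs, and had no UMI in section 5, where 0 counts allow up to 99.0 CPM. In TH- cells it was at 32.9, 133, 104, 54.9 and 113 CPM, from 5, 23, 14, 11 and 16 UMIs. The ranges overlapped, and TH- cells were higher in 3 of 5 sections. Drd1 had a log2 fold change of -0.48 ± 0.44 with an edgeR adjusted p of 0.8379 (Benjamini-Hochberg), and its exact permutation p was 0.206. Without section 5, whose TH+ library held no Drd1 UMI, the log2 fold change was -0.18. Müller glia genes were lower on average in TH+ cells, at 0.454% ± 0.0720 of TH+ and 0.665% ± 0.104 of TH- UMIs (SD, n = 5). So were bipolar genes (0.140% ± 0.0408 and 0.210% ± 0.110) and amacrine genes (0.437% ± 0.0738 and 0.595% ± 0.137). By edgeR 1 of 10 amacrine genes was called lower in TH+ cells, and no bipolar or Müller glia gene was called. Their part in the Drd1 values was not tested.

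Drd4 was at 40.8, 22.9, 70.6, 64.9 and 132 CPM in TH+ sections 1 to 5, from 2, 2, 3, 3 and 4 UMIs. In TH- cells it was at 85.5, 11.6, 14.9, 25.0 and 49.3 CPM, from 13, 2, 2, 5 and 7 UMIs. TH+ cells were higher in 4 of 5 sections, yet the ranges overlapped. The log2 fold change of Drd4 was 0.59 ± 0.55 with an edgeR adjusted p of 0.8391 (Benjamini-Hochberg), and the exact permutation p was 0.254. Leaving out single sections moved the log2 fold change between 0.34 without section 3 and 1.19 without section 1, where the exact permutation p was 0.0857, and Drd4 was not called in any of these fits. Rod genes made up 3.56, 1.81, 4.39, 4.50 and 4.26% of TH+ UMIs and 2.58, 1.03, 2.50, 2.61 and 1.999% of TH- UMIs. All 18 rod genes were present in each library, and 5 of 18 were called higher in TH+ cells. Their part in the Drd4 values was not tested. Drd4 had 16.4 UMIs per 10000 rod marker UMIs in TH+ cells (counting interval 8.94 to 27.4) and 16.9 in TH- cells (11.3 to 24.3).

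Drd5 had 1, 1, 0, 2 and 0 UMIs in TH+ sections 1 to 5 and 0, 1, 0, 1 and 0 in TH- sections. Both groups thus held libraries at 0, and the TH+ to TH- ratio of 6.27 from 4 and 2 UMIs had a counting interval of 0.899 to 69.4 that includes equal levels. The exact permutation p for Drd5 was 0.167. Across these 4 unadjusted exact tests, none was below 0.05. Of the 3 receptors tested by edgeR, 0 of 3 were called and none had an unadjusted p below 0.05, against 0.830% of the 6021 genes tested, or 50 genes. DESeq2 called none of the 3 either. That background rises to 148 genes with the section as a block and falls to 29 without section 3 and 31 without section 5, and no receptor was called in those fits. Since the methods speak of a single source animal, p-values over these sections are too small for a statement about animals.

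**Figure D5:**
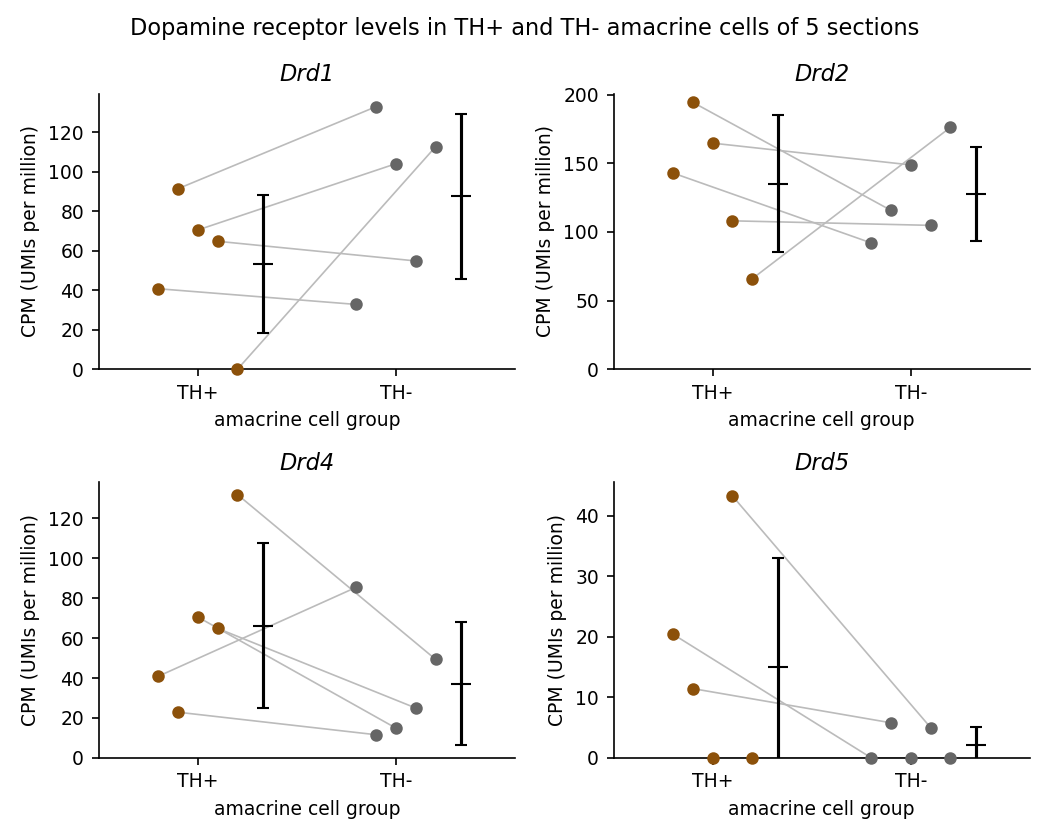
Levels of the 4 receptor genes in CPM (vertical axes, each from 0) in TH+ and TH- amacrine cells, with the 5 sections as points in order, grey lines joining the same section and the mean ± SD as a bar beside each group, drawn down to 0 at most. The groups overlap for each receptor.

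The layer and amacrine libraries came from separate experiments, sequenced on different instruments. The amacrine sections also had a TH stain and more washes before sequencing. Levels are therefore set side by side without a test, and differences between the experiments cannot be told apart from differences between the cells. The order for Drd4 was ONL 231 ± 30.7, TH+ 66.2 ± 41.4, BCL 42.2 ± 16.04, TH- 37.2 ± 30.7 and GCL 22.6 ± 10.7 CPM. Only the step from the ONL to the next group exceeded the spread. For Drd2 it was BCL 184 ± 38.2, TH+ 135 ± 49.9, TH- 128 ± 34.4, GCL 31.3 ± 12.5 and ONL 19.1 ± 7.97 CPM. The BCL and both amacrine groups overlapped in range and stood above the GCL and the ONL, which overlapped with each other. For Drd1 it was TH- 87.6 ± 42.0, BCL 77.2 ± 22.4, TH+ 53.6 ± 34.95, GCL 23.6 ± 4.50 and ONL 6.20 ± 2.50 CPM. The first 3 overlapped, and the GCL and ONL were apart. TH+ sections 1 to 4 (40.8 to 91.5 CPM) lay above each GCL value. The 0 of TH+ section 5 has a limit of 99.0 CPM, so its place beside the GCL is not resolved. For Drd5 it was TH+ 15.02 ± 18.0, GCL 7.04 ± 1.67, TH- 2.16 ± 2.96, BCL 1.24 ± 2.47 and ONL 0.624 ± 1.25 CPM, and each neighbouring pair in this order overlapped in range. The overlap of TH+ with the GCL rests on TH+ sections 3 and 5 at 0, with limits of 70.6 and 99.0 CPM. The TH+ mean rests on 4 UMIs, of which section 4 held 2 (43.2 CPM). Without section 4 the TH+ minus TH- difference fell from 12.9 to 6.52 CPM.

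The G proteins and cyclases that the receptors act on had layer patterns of their own. Gnal and Gnas encode the stimulatory subunits used by D1-like receptors. Gnal was at 157 ± 17.8 CPM in the GCL, 27.5 ± 6.89 CPM in the BCL and 16.1 ± 8.20 CPM in the ONL, with a BCL to GCL log2 fold change of -2.67 ± 0.26. Gnas was also highest in the GCL, at 142 ± 19.8 CPM against 76.0 ± 6.34 CPM in the BCL and 28.8 ± 5.21 CPM in the ONL. Drd1, by contrast, had its highest layer level in the BCL, and the top layer of Drd5 was not resolved between GCL and BCL. Among inhibitory subunits, Gnai2 was highest in the BCL with Drd2, at 594 ± 15.1 CPM against 277 ± 24.5 CPM in the GCL and 75.8 ± 12.7 CPM in the ONL. Gnao1 was at 1539 ± 57.9 CPM in the BCL, 1466 ± 35.7 CPM in the GCL and 249.5 ± 65.0 CPM in the ONL. Gnai2 and Gnao1 were thus lowest in the layer where Drd4 was highest, with ONL to BCL log2 fold changes of -2.60 ± 0.14 and -2.29 ± 0.13. Levels of the other inhibitory subunits in the list are not reported here. Gnb1, a beta subunit that also serves phototransduction, went the other way, at 7222 ± 393 CPM in the ONL, 2138 ± 434 CPM in the BCL and 1281 ± 134 CPM in the GCL, with ONL log2 fold changes of 2.08 ± 0.12 over the BCL and 2.65 ± 0.12 over the GCL.

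Adcy1 encodes a calmodulin-stimulated adenylyl cyclase whose rhythm in photoreceptors is known to depend on D4 receptors. Like Drd4 it was highest in the ONL, at 699.6 ± 37.4 CPM, but unlike Drd4 it was higher in the GCL (439 ± 31.3 CPM) than in the BCL (255 ± 38.0 CPM). Its log2 fold changes were 1.79 ± 0.13 for the ONL over the BCL and 0.83 ± 0.10 for the ONL over the GCL. Ppp1r1b, which encodes the phosphatase inhibitor DARPP-32 downstream of dopamine, had the order of Drd1, with 32.2 ± 19.1 CPM in the BCL, 8.04 ± 4.62 CPM in the GCL and 2.64 ± 1.92 CPM in the ONL. Gjd2, the gap junction gene whose channels dopamine regulates, was at 112 ± 33.7 CPM in the BCL, 69.4 ± 17.5 CPM in the GCL and 60.3 ± 5.24 CPM in the ONL. Caly, a partner of D1-like receptors, was at 61.9 ± 5.38, 52.6 ± 15.3 and 9.20 ± 2.85 CPM in the GCL, BCL and ONL.

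The pathway lists are given first for the ONL against the GCL. Of 15 G protein subunits tested between the ONL and the GCL, 3 were higher and 10 lower in the ONL, with a median log2 fold change of -2.04 beside 0.00 over all genes. Of 19 adenylyl cyclases and phosphodiesterases, 4 were higher and 13 lower, with a median of -2.19. Of 10 genes listed for the D4 and cyclic AMP rhythm of photoreceptors, 9 were tested, with a median of 0.83. In this list 6 were higher, among them Usp2 and Cry1, and 3 lower, among them Cry2 and Per2. The remaining lists in that comparison were PKA subunits and targets (3 higher and 11 lower of 18), receptor kinases, arrestins and RGS proteins (3 and 17 of 21), receptor partner proteins (3 and 17 of 22), other aminergic and muscarinic receptors (1 and 10 of 12) and dopamine synthesis and handling (1 and 3 of 6, with a median of -0.01). The retinal RGS genes Rgs9 and Rgs9bp, which serve phototransduction in rods and cones, were among the 3 higher in the ONL. In the same comparison 61.5% of all genes tested were called, so these shares are read only beside that value. Against the BCL fewer genes of most lists were called, with 36.7% of all genes called and a median of 0.09 over them. There 3 G protein subunits were higher in the ONL and 9 lower, 3 cyclases and phosphodiesterases higher and 11 lower, 3 PKA genes higher and 8 lower, 4 kinases, arrestins and RGS proteins higher and 9 lower, and 3 partner proteins higher and 8 lower with 11 not called. The D4 and cyclic AMP rhythm list had 3 higher, 2 lower (Cry2 and Per2) and 4 not called, with a median of 0.31. Cry1 was not called, at 71.4 ± 3.95 CPM in the ONL and 72.8 ± 23.8 CPM in the BCL. Dopamine handling had 0 higher and 2 lower of 6, and other aminergic and muscarinic receptors 0 higher and 5 lower of 12.

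Between the BCL and the GCL, where Drd1 and Drd2 were higher in the BCL, 3 of 12 other aminergic and muscarinic receptors were higher and 5 lower in the BCL, with 36.5% of all genes tested called. In the other lists the BCL had 3 higher and 7 lower of 15 G protein subunits, 3 and 10 of 19 cyclases and phosphodiesterases, 5 and 8 of 18 PKA genes, and 5 and 10 of 21 kinases, arrestins and RGS proteins. It had 1 higher and 13 lower of 22 partner proteins, 5 and 2 of 9 rhythm genes, and 0 and 2 of 6 dopamine handling genes. Adra2a, an adrenergic receptor that also couples to inhibitory G proteins, had the layer order of Drd2 at its top, with 116 ± 15.8 CPM in the BCL, 13.6 ± 6.12 CPM in the ONL and 12.1 ± 2.47 CPM in the GCL. In the TH+ against TH- comparison, 2 of 4 dopamine handling genes tested were called higher in TH+ cells, since Th had a log2 fold change of 4.22 ± 0.32 and Slc18a2, the vesicular transporter, one of 3.66 ± 0.37. In that comparison 0.830% of all genes were called. Arpp21, a PKA target, and Necab2, from the list of receptor partner proteins, were also higher in TH+ cells. Their log2 fold changes were 2.98 ± 0.53 and 2.27 ± 0.41, where the receptors themselves did not pass the test. Whether Necab2 acts with a dopamine receptor was not tested. Arpp21 and Necab2 were the only calls by edgeR in their lists, at 1 of 13 PKA genes and 1 of 19 partner proteins. No call was made among 13 G protein subunits, 14 cyclases and phosphodiesterases, 16 kinases, arrestins and RGS proteins, 8 rhythm genes and 6 other aminergic and muscarinic receptors, where 1, 1, 3, 1 and 1 had an unadjusted edgeR p under 0.05.

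Genes with the pattern most like each receptor were ranked by Pearson's r of log2(CPM + 1) over the 12 layer libraries, as a description, since the libraries share sections and layers. For Drd4 they were Susd3 (r = 0.986), Syne2, Samd11, Dnah9 and Gramd1b (r = 0.976), and 371 of 11323 genes had r above 0.9. Susd3 was at 72.5 ± 11.3 CPM in the ONL, 13.6 ± 7.34 CPM in the BCL and 5.82 ± 3.10 CPM in the GCL. For Drd2 they were Col27a1 (r = 0.989), Dazap2, Fam135b, Cacna1h and Sowaha (r = 0.969), and 134 genes had r above 0.9. For Drd1 they included Isl1 (r = 0.985), Apoe, Auts2 and Cdh8 (r = 0.977), and 323 genes had r above 0.9. Isl1, a transcription factor of ON bipolar, some amacrine and ganglion cells, and Apoe, known from Müller glia, are themselves in the marker lists used here.

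Mouse 3T3 fibroblasts served as cells without a retinal origin. They were barcoded by Light-Seq in 3 wells of a mixed culture, with a hybridization mix and a number of PCR cycles unlike those of the sections. None of the 4 receptors had a UMI there among 135565, 206187 and 199128 UMIs. A count of 0 allows up to 22.1, 14.5 and 15.1 CPM in these wells, limits below every ONL level of Drd4 and every BCL level of Drd1 and Drd2 but above the levels of Drd5 in the GCL.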

How the data were processed

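UMI and barcode were read from each sequence by the authors with UMI-tools 1.1.1, and the cDNA was mapped to the mouse genome with STAR 2.7.9a. Reads matching more than 1 place were dropped, featureCounts gave the rest to exons of GENCODE genes, and UMIs were then collapsed per gene. The deposited count of a gene is thus its number of distinct UMIs, without normalization, and the gene length deposited with the mixed culture gave the values per kilobase. The members and the gene lists were chosen with earlier results of these data known.

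The 12 layer libraries and the 10 amacrine libraries were each fitted once with edgeR 4.0.16 (R 4.3.3), using its quasi-likelihood F-test, TMM scaling, a low-count filter (filterByExpr with min.count 3 and min.total.count 10) and Benjamini-Hochberg adjustment at 0.05 over all genes. The filter left 11324 and 6021 genes. Standard errors were taken as the absolute log2 fold change over the root of the F statistic. The common biological coefficient of variation was 9.165% and 16.05%. Single values were compared with two-sided exact permutation tests (numpy 2.4.6 and pandas 2.3.3 in python 3.11.15). The counting intervals used scipy 1.17.1. Plots were drawn with matplotlib 3.10.9. The exact p-values are not adjusted over the receptors. Intervals are exact at 95%, and a floor is 3 counts of the total, both for counting error only.

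Libraries from the same section are paired by the design. Once group means were taken out, such libraries correlated at 0.0116 to 0.0493 over 12 pairs of layer libraries and at 0.0287 to 0.2565 over 5 amacrine pairs.

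Named genes are the 4 receptors, pathway genes past the threshold and among the 3 smallest adjusted p of their list in a layer comparison, genes whose role describes the receptors, and the 5 genes most correlated with each receptor of at least 50 UMIs. Some genes that these rules take are not reported here. There were 9 pathway lists and 11 marker lists. Gene coordinates come from a later GENCODE release on GRCm39, matched by Ensembl identifier, and promoters from RefSeq on GRCm38.p6, where all 4 symbols matched. Alternatives were DESeq2 1.42.0, size factors of the DESeq2 kind in edgeR, other low-count filters, a block for the section, totals without mitochondrial genes, weights by gene length and each section left out in turn. Human genes of the mixed culture, a deeper run of 1 of its wells and a pooled layer library were not used here.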

Additional observations from a re-analysis of the deposited data

Results flagged for a closer look

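Of 40 groups of 4 or 5 libraries, 7 held a library far from the others. The usual chance rate of about 1 in 20 does not apply to them. Some groups rest on very few UMIs, and levels and shares of the same UMIs were both included. In the BCL, section 4 had the lowest Drd2 share of receptor UMIs, 49.1%, with the nearest section at 63.0%. Drd5 stood apart in the BCL and the ONL because a single library of each had any UMI. These were 4.94 CPM and 1.75% of receptor UMIs in BCL section 4, and 2.50 CPM and 1.06% of receptor UMIs in ONL section 1. The Drd4 share was 66.7% in TH+ section 5, from 4 of 6 UMIs, with the next at 23.1%, and 40.6% in TH- section 1, from 13 of 32 UMIs, with the next at 14.6%. No cause was tested for any of them.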

How the results depend on the processing

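Each receptor log2 fold change kept its side of the threshold under all alternatives run, 70 values with other tests, scalings, filters or the section block and 51 values without a section. Drd1 and Drd4 in the amacrine cells have no value under edgeR's default filter, which removes them. Drd2 between TH+ and TH- cells changed sign without section 2, at -0.0473 on the log2 scale, as did its CPM difference without section 1 (exact p = 0.9143) and section 2 (exact p = 0.7143). Drd5 between ONL and BCL changed sign without section 4 (exact p = 1). None of these was called. For Drd2 without each section in turn, log2 fold changes ran from -0.0473 to 0.47 and exact p from 0.1714 to 0.9143.

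With the section as a replicate block, the number of genes called between TH+ and TH- cells rose from 50 to 148, and the cause was not tested. Without a section it ran from 29 to 73, with 29 without section 3 and 31 without section 5, again with the cause not tested. Among the receptors, the block changed no call of an edgeR fit. In the exact tests the paired form gave p = 0.125 for the 9 CPM results and the 2 Drd4 shares that were at 0.0286, and leaving out any section gave p = 0.1. Both are the smallest p possible with so few sections. The Drd4 share between BCL and GCL reached an exact p of 0.02857 with UMIs weighted by gene length. Depth limits Drd5 most, since its 22 UMIs over the layers leave 6 of 12 layer libraries at 0.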
